A study of Mus musculus with 6 samples.

Results

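Transcripts of 9 Sox family genes were followed in tauGFP-positive cells of the mouse hindbrain: Sox1, Sox2, Sox3 and Sox21, which act in neural progenitors, Sox4 and Sox11, which act in young neurons, and Sox5, Sox6 and Sox9. They were taken by name, together with every probe set that the platform's probe table assigns to exactly 1 of these symbols. This gave 35 of 45037 probe sets and 9 of 18193 genes, and each gene is represented below by whichever of its probe sets had the highest mean over all arrays. The cells were sorted at E10.5 from hindbrains of whole litters, and the labels give the tissue as rhombomere 4. In the swap group (n = 3 arrays) the Hoxb1 locus made another Hox protein, whose name is not reported here, in place of Hox-B1. In the control group, Hoxb1-IRES-tauGFP (n = 3 arrays), the locus made the normal Hox-B1 protein. Both alleles carried the reporter IRES-tauGFP at that locus, so the sort selected for cells with an active Hoxb1 locus. Genes of erythroid cells and macrophages were also measured in the sorted material, as described below. Whether the embryos carried 1 or 2 copies of the allele is not given in the sources used here. RNA was amplified before hybridization, and each array held an independent biological replicate of pooled embryos, as the series design states. The question is whether transcript levels in these cells differ when another Hox protein is made from the Hoxb1 locus.

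Sox proteins bind DNA through a domain of the high mobility group type, the HMG box, and act together with partner factors such as POU proteins. Proteins of the SoxB1 group (Sox1, Sox2 and Sox3) keep neural progenitors undifferentiated, and Sox21, of the SoxB2 group, is a repressor that opposes them in the chick neural tube. The SoxC proteins Sox4 and Sox11 switch on neuronal genes such as Tubb3 after cells leave the progenitor state. Sox5 and Sox6 (SoxD) have no activation domain of their own and work beside Sox9 (SoxE) in cartilage. Sox9 also acts in neural stem cells, in the onset of gliogenesis and in neural crest.

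The start regions of the SoxB1 genes Sox1 and Sox2 and of both SoxC genes are shown to give the regulatory sequence of genes whose values are described below. Each window runs from 250 bases before to 50 bases after the annotated start, is read 5′ to 3′ on the gene's strand and comes from RefSeq on GRCm38.p6. Capitals mark CCAAT (in either orientation, so CCAAT or ATTGG) and the octamer ATTTGCAT (in either orientation), a POU factor motif.
Sox1, chr8:12395269-12395568, plus strand: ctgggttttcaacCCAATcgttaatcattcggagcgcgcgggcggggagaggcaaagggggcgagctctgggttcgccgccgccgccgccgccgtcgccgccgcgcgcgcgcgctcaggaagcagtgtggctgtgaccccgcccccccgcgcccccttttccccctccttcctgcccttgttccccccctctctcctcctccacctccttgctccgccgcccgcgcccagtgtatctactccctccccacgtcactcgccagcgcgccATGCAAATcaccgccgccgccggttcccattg
Sox2, chr3:34649745-34650044, plus strand: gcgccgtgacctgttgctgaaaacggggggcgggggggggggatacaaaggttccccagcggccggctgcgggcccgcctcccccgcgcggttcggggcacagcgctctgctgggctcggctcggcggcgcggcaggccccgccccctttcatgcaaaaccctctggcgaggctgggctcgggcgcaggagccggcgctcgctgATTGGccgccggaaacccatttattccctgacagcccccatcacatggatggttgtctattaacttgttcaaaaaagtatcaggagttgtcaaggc
Sox4, chr13:28953650-28953949, minus strand: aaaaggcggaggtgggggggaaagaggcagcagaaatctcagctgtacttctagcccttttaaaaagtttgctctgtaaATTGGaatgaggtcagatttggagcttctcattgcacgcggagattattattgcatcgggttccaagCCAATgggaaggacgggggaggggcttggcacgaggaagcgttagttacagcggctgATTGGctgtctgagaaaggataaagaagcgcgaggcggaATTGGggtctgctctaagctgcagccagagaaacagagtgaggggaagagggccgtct
Sox11, chr12:27342669-27342968, minus strand: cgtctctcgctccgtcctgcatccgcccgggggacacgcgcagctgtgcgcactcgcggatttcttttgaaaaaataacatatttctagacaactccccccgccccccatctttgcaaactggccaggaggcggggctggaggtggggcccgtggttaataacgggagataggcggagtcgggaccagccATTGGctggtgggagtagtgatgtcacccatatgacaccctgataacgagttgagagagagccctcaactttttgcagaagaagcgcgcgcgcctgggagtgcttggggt

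The promoter table held 7 of the 9 genes. Sox3 and Sox9 were not matched. These 4 windows were rich in CpG dinucleotides, with 37 in Sox1, 27 in Sox2, 12 in Sox4 and 21 in Sox11, against a median of 7 over the 32851 windows of the table. Sox21 had 22 CpG and Sox5 had 3, while the 6 annotated starts of Sox6 had 2 to 13. Every window shown held CCAAT, as did 37.4% of all windows. Those of Sox5 and Sox21 held 0 matches, and the 6 starts of Sox6 held 0 to 4 each. The single match began 237 bases before the start in Sox1, 46 bases before it in Sox2 and 60 bases before it in Sox11. Sox4 had 4 matches, which began 171, 104, 47 and 8 bases before its start. The CCAAT motif was chosen after the sequences were seen. Sox1 held the octamer, which 1.74% of all windows hold, beginning at base 19 after the start. The core Sox motif AACAAT (both strands, 10.7% of all windows) and the Hox and Pbx motif TGATNNAT (both strands, 8.85%) had 0 matches in the 4 windows shown, and 1 start of Sox6 held the Sox motif at 2 places. These matches describe letters only, and the arrays do not measure binding.

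All 9 genes reached the median level of the table, an intensity of 114, and none passed limma's test between the genotypes. At gene level 4 had a higher and 5 a lower mean in the swap arrays. Their median log2 difference was -0.01, against 0.01 over all genes, and none had swap arrays all on one side of the control arrays (0 of 9, against 8.85% of all genes). limma called 0 of the 35 probe sets, with an adjusted p of 1.00 for each, and 0 of them had an unadjusted p under 0.05. The background was 0% of probe sets called after adjustment and 4.57% at the unadjusted threshold of 0.05. The 95% interval lay within 2-fold for 7 of the 9 genes, the exceptions being Sox3 and Sox5, and for 68.1% of all genes at or above the median level. In bulk RNA of sorted cells, a change in the share of cells that make a transcript and a change in its amount per cell cannot be told apart.

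The SoxB1 genes come first. Sox2, which marks neural progenitors throughout the central nervous system, had log2 intensities of 12.58, 12.57 and 12.51 in swap arrays 1, 2 and 3, against 12.69, 12.49 and 12.61 in control arrays 1, 2 and 3. All 6 values lay within 0.20 of one another and the groups overlapped. The means were 12.55 ± 0.04 in swap arrays and 12.60 ± 0.10 in control arrays (SD, n = 3 each), a ratio of 0.969 with a 95% interval of 0.686 to 1.37. A rise of Sox2 past 1.37-fold, or a fall below 0.686 of the control level, thus lay outside the 95% interval.

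Sox1, which is restricted to neural tissue, stood at 11.84, 11.84 and 11.82 in the swap arrays, against 12.22, 11.36 and 11.29 in the control arrays. The swap values were nearly identical, while control array 1 lay above and the other control arrays below all of them. The log2 difference was 0.21 (SE 0.32, 95% interval -0.57 to 1.00), and it was 0.51 without control array 1. Sox3, an X-linked gene of early progenitors, had linear intensities of 2020, 1450 and 929 units in the swap arrays, against 1840, 920 and 1130 in the control arrays. Here both replicate 1 arrays were the highest, and the spread within a genotype was larger than the log2 difference of 0.17 (SE 0.41). Without swap array 1 that difference was -0.10. A further Sox3 probe set gave 0.22 (SE 0.29), and a further Sox1 probe set, below the median level, gave -0.11 (SE 0.38).

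Sox21 stood at 10.16, 10.54 and 11.10 in the swap arrays, against 10.73, 10.42 and 10.85 in the control arrays. Swap arrays 1 and 3 enclosed all control values. The difference was -0.07 (SE 0.32, 95% interval -0.86 to 0.72), and it was 0.15 without swap array 1. The other Sox21 probe set varied in the same array, at 6.37 in swap array 1 against 8.19 and 8.07 in the other swap arrays and 7.60, 8.03 and 7.82 in the control arrays.

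**Figure D1:**
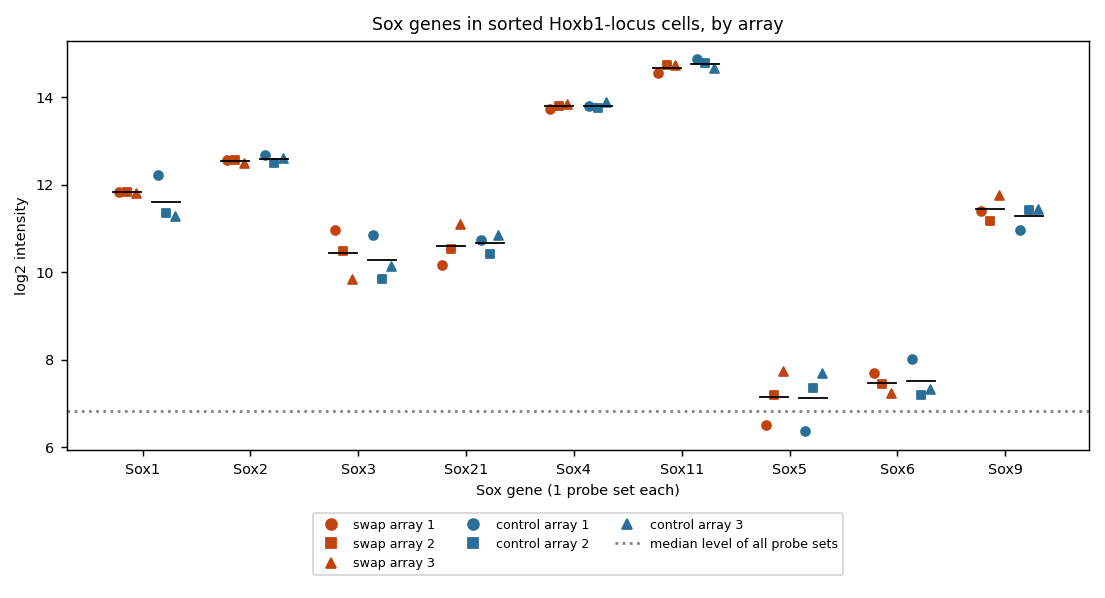
Log2 intensity (vertical axis) of the 9 Sox genes (horizontal axis), each by the probe set that stands for it, with 1 point per array, swap arrays left of control arrays, a black line at each mean and a dotted line at the median level of all probe sets. Levels of different genes come from different probe sets and cannot be ranked, and swap and control points overlap for every gene.

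By the probe sets that stand for them, the SoxC genes were the most even across arrays together with Sox2. Sox4 had log2 intensities of 13.73, 13.80 and 13.86 in the swap arrays, against 13.80, 13.75 and 13.89 in the control arrays. The groups overlapped fully, and the ratio of swap to control was 0.990 (95% interval 0.703 to 1.39). Sox11 stood at 14.56, 14.75 and 14.74 in the swap arrays, against 14.87, 14.78 and 14.67 in the control arrays. Swap array 1 was the lowest and control array 1 the highest, and the ratio was 0.939 (95% interval 0.658 to 1.34).

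The spread within a genotype, as a pooled SD of log2 intensity, differed between the probe sets that stand for the genes. It was 0.07 for Sox4, 0.08 for Sox2 and 0.10 for Sox11, below the median of 0.27 over all genes at or above the median level. The other 6 genes lay above that median, with 0.29 for Sox9, 0.35 for Sox6, 0.37 for Sox1 and Sox21, 0.54 for Sox3 and 0.66 for Sox5. A small difference was therefore better bounded for these probe sets of Sox2, Sox4 and Sox11 than for those of Sox3 or Sox5. For Sox4 that bound holds for its leading probe set, since the median over all its probe sets gave a difference of -0.34. For Sox11 it likewise holds for the leading probe set. The dimmest Sox11 probe sets, 1453125_at and 1436790_a_at, gave -0.43 and -0.26, while its others gave -0.09 to -0.01. The leading probe sets of Sox2, Sox4 and Sox11 were also the brightest of the leading ones. The median of 0.27 was not matched for brightness, and whether their low spread goes with brightness was not tested.

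**Figure D2:**
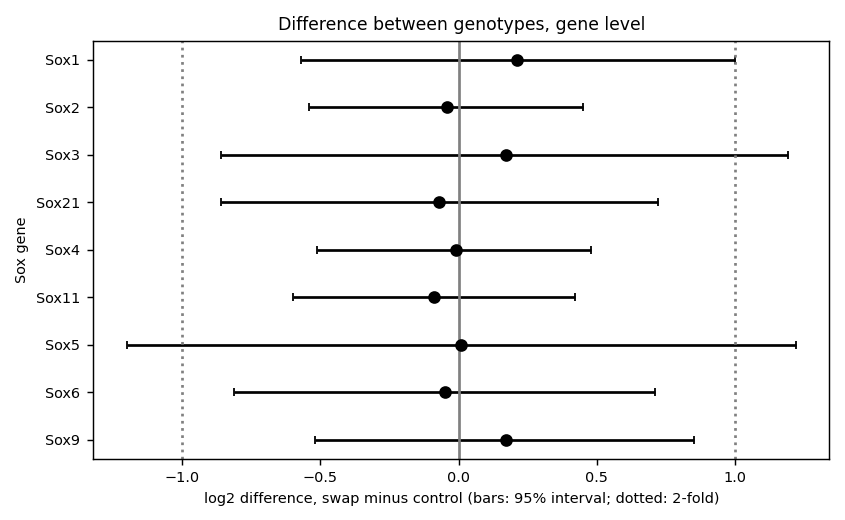
Log2 difference, swap minus control (horizontal axis), for the 9 Sox genes (vertical axis), with points for the limma estimate and bars for its 95% interval. Every interval includes 0, and those of Sox3 and Sox5 reach past the dotted lines at 2-fold.

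Sox11 was measured by 6 probe sets, and for 1 of them the swap and control arrays did not overlap. The probe set 1453125_at had 13.30, 12.91 and 13.35 in the swap arrays, against 13.71, 13.55 and 13.58 in the control arrays. All its swap values lay below all its control values, which held for 1 of the 35 probe sets here and for 4.73% of all probe sets. The opposite order held for 0 of the 35 and for 1850 of all 45037 probe sets. The difference was -0.43 (SE 0.23, 95% interval -0.99 to 0.14), with an adjusted p of 1.00 in limma.

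The other Sox11 probe sets gave differences of -0.09, -0.07, -0.01, -0.02 and -0.26. The last of these, 1436790_a_at, had 12.30, 11.86 and 12.18 in the swap arrays, against 12.21, 12.53 and 12.38 in the control arrays, and swap array 1 overlapped the control arrays. The pair 1453125_at and 1429372_at is listed under the same sequence accession. Within each array, the log2 signal of 1453125_at minus that of 1429372_at was -0.67, -0.75 and -0.34 in the swap arrays, against -0.21, -0.15 and -0.18 in the control arrays. That within-array difference averaged -0.59 ± 0.22 in swap arrays and -0.18 ± 0.03 in control arrays (SD, n = 3 each), and the groups did not overlap (exact permutation test, two-sided p = 0.1, the lowest value possible with 3 arrays a group). Against the mean of the other 5 probe sets the shift was -0.34, with the same p in the exact permutation test. This comparison was chosen because the arrays of 1453125_at did not overlap, so it repeats that observation and is not independent of it. Where either lies in the transcript is not known here.

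Sox4 was measured by 8 probe sets, of which 5 lay at or above the median level. Those 5 gave differences of -0.01, 0.07, -0.06, -0.15 and -0.69. The last, 1419155_a_at, had 7.92, 7.54 and 7.41 in the swap arrays, against 8.52, 8.71 and 7.70 in the control arrays, so that swap array 1 overlapped control array 3 (SE 0.35, unadjusted p = 0.0992 and adjusted p = 1.00 in limma). The Sox4 probe sets thus differed among themselves by more than the leading one did between genotypes. The 3 dim ones had SEs of 1.00 to 1.27.

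**Figure D3:**
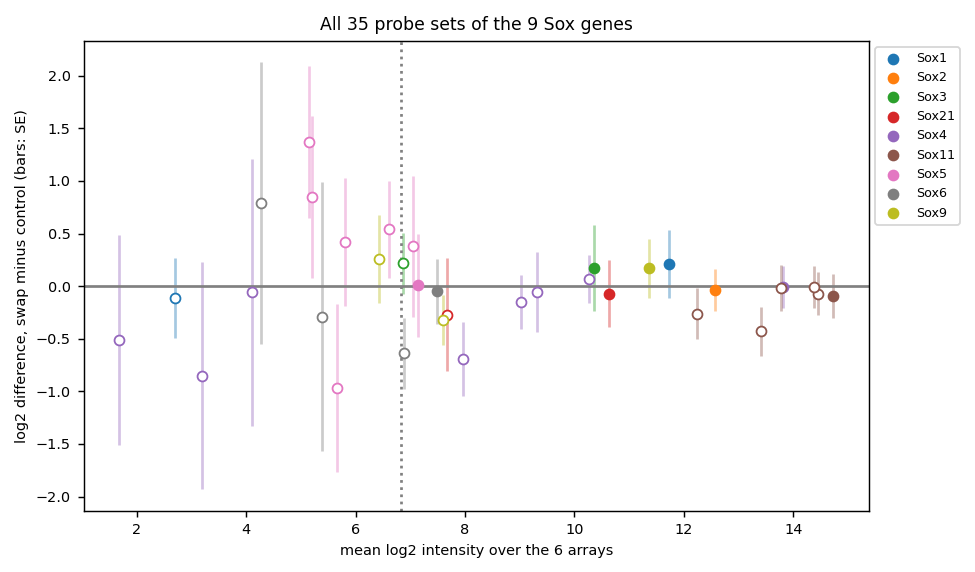
Log2 difference, swap minus control (vertical axis, bars for the SE), against mean log2 intensity over the 6 arrays (horizontal axis) for all 35 probe sets, coloured by gene, with filled points for the probe sets that stand for a gene. Right of the dotted median level the differences run from -0.69 to 0.38, with -0.43 for the Sox11 probe set 1453125_at, and left of it they run from -0.97 to 1.37.

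Sox5 and Sox6 were measured near the median level. Sox5, which promotes exit from the cell cycle in the chick spinal cord, stood at 6.51, 7.20 and 7.75 in the swap arrays, against 6.37, 7.35 and 7.71 in the control arrays. In both genotypes array 1 was the lowest and array 3 the highest. The difference was 0.01 (SE 0.49, 95% interval -1.20 to 1.22), which leaves a change of up to 2.33-fold within the interval, and it was -0.38 without control array 1. Of the 7 Sox5 probe sets, 5 lay below the median level, with differences from -0.97 to 1.37. The other Sox5 probe set above that level, 1432189_a_at, had 6.90, 7.07 and 7.77 in the swap arrays, against 5.42, 7.44 and 7.73 in the control arrays, again with array 1 lowest and array 3 highest in each genotype. The widest difference came from 1459261_at, with 5.11, 5.80 and 6.61 in the swap arrays, against 3.15, 4.69 and 5.58 in the control arrays (SE 0.72, unadjusted p = 0.109 in limma). Its groups overlapped.

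Sox6, which in mouse erythroid cells takes part in silencing embryonic globin, stood at 7.70, 7.45 and 7.25 in the swap arrays, against 8.02, 7.19 and 7.34 in the control arrays. Both replicate 1 arrays were again at an extreme, here the high one. Its difference was -0.05 (SE 0.31, 95% interval -0.81 to 0.71), and it was 0.20 without control array 1. A second probe set of Sox6, 1447655_x_at, gave -0.64 (SE 0.34), with 6.94, 6.38 and 6.39 in the swap arrays, against 6.68, 7.36 and 7.60 in the control arrays. The suffix x marks probes that may cross-hybridize with other transcripts, and the groups overlapped.

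Sox9 stood at 11.41, 11.17 and 11.77 in the swap arrays, against 10.96, 11.43 and 11.45 in the control arrays. Control array 1 was the lowest and swap array 3 the highest. The difference was 0.17 (SE 0.28, 95% interval -0.52 to 0.85), and it was 0.01 without control array 1. The other Sox9 probe sets gave -0.32 (SE 0.24) and 0.26 (SE 0.42), so the probe sets of Sox9 did not share a direction. The lower one, 1424950_at, had 7.31, 7.26 and 7.76 in the swap arrays, against 7.77, 7.81 and 7.70 in the control arrays, so swap arrays 1 and 2 lay below every control array and swap array 3 did not.

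Array 1 of the control group was the highest or the lowest array for 6 of the 9 genes, highest for Sox1, Sox2, Sox6 and Sox11 and lowest for Sox5 and Sox9. Markers of other cell types also differed there. The summed intensity of the 9 branchial mesenchyme genes was 3870, 6410 and 4900 in the swap arrays, against 2960, 9150 and 6430 in the control arrays. Both replicate 1 arrays were thus the lowest of their genotype for mesenchyme, as they were for Sox5. The highest of each genotype was array 2 for mesenchyme but array 3 for Sox5. Summed cartilage, endothelial, erythroid and macrophage genes were also lowest in array 1 of each genotype. The 8 macrophage genes summed to 2400 to 4640 in the swap arrays, against 494 to 17100 in the control arrays, with control array 1 the lowest and control array 2 the highest. Genotype differences of the mesenchymal genes were -0.28 (SE 0.84) for the homeobox factor Prrx1, 0.61 (SE 0.44) for Msx1 and -0.10 (SE 0.66) for the collagen gene Col1a1. The macrophage genes C1qb, Fcer1g and Ptprc had 0.61 (SE 1.36), 0.44 (SE 1.01) and 1.22 (SE 1.22). Of these mesenchymal and macrophage genes, only Msx1 had a difference clearly larger than its SE. The part of these cells in the values of Sox5 and Sox9 was not tested.

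The other cell type lists were summed in the same way, and such sums of linear intensities weigh the brightest genes most. Ednrb gave 8480 of the 14500 units of neural crest and early glia in swap array 1. Hbb-y gave 20500 of the 31800 erythroid units in swap array 3, and C1qb 10900 of the 17100 macrophage units in control array 2. Genes of cartilage, where Sox9 acts with Sox5 and Sox6, summed to 2220 to 3520 in the swap arrays, against 1750 to 3140 in the control arrays (8 genes). Of these, the cartilage collagen gene Col2a1 differed by 0.52 (SE 0.31) and Col9a1 by -0.25 (SE 0.69), and Hapln1, a link protein of cartilage matrix, by 0.48 (SE 0.40). The 5 measured of 7 genes of neural crest and early glia, a further site of Sox9, summed to 14500 to 17900 in the swap arrays, against 16100 to 17400 in the control arrays. Their members Ednrb and Tfap2b had differences of -0.12 (SE 0.23) and 0.10 (SE 0.24). Otic genes (4 of 6 measured) summed to 1100 to 1470 in the swap arrays, against 899 to 1310 in the control arrays, and the 6 endothelial genes to 412 to 506 in the swap arrays, against 253 to 419 in the control arrays. The otic genes Oc90, Dlx5 and Eya1 had differences of -0.62 (SE 0.40), 0.29 (SE 0.32) and 0.32 (SE 0.26), and the endothelial genes Cdh5 and Tek of 0.18 (SE 0.52) and 0.59 (SE 0.30). The 8 measured of 9 erythroid genes summed to 15700 to 31800 in the swap arrays, against 21100 to 33800 in the control arrays, all 8 being lower on average in the swap arrays, with a median of -0.28 and 0 called. Among them, the embryonic globin genes Hbb-y and Hbb-bh1 differed by -0.15 (SE 0.30) and -0.27 (SE 0.52). Hba-a1, a globin gene measured below the median level, was the 1 gene of that list whose arrays did not overlap, at 3.71, 4.54 and 4.19 in the swap arrays, against 5.41, 5.52 and 6.24 in the control arrays. Its difference was -1.58 (SE 0.35, 95% interval -2.45 to -0.71), with an unadjusted p of 0.00466 and an adjusted p of 0.771 in limma. In that direction 4.55% of all genes did not overlap, and 8.85% in either direction. No member of these lists had an intensity of 0, the lowest being 3.73 in the macrophage list.

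**Figure D4:**
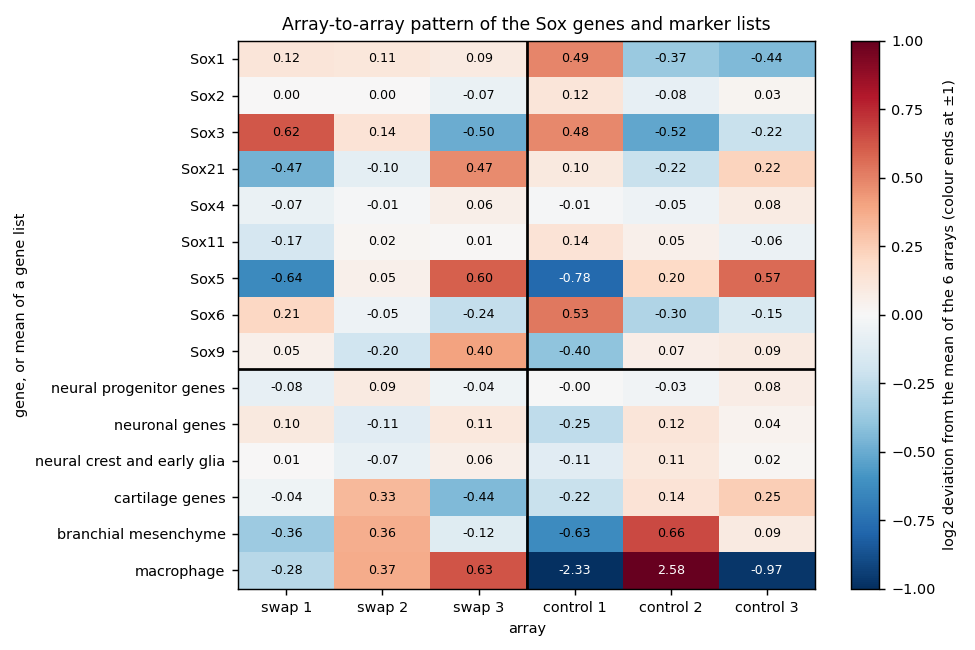
Log2 deviation of each array (columns, swap left of control) from the mean of the 6 arrays, for the 9 Sox genes and for the mean of 6 gene lists (rows), with the colour scale ending at 1 in either direction. Sox2 and Sox4 stay within 0.12 of 0, Sox5 is lowest in both replicate 1 arrays, and the macrophage list runs from -2.33 to 2.58 between control arrays.

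The remaining members of the Sox family were read as a group. All 10 were measured and 4 of them reached the median level. Between genotypes, 5 were higher and 5 lower in swap arrays, 0 were called, and the median difference was 0.00. Sox10, of neural crest and glia, stood at 10.42, 10.73 and 9.76 in the swap arrays, against 10.70, 10.19 and 9.75 in the control arrays, a difference of 0.09 (SE 0.38). Sox12, the remaining SoxC gene, had a difference of -0.08 (SE 0.25, 95% interval -0.70 to 0.55). Sox14, a SoxB2 gene of interneurons, was dim at 5.32, 5.90 and 4.28 in the swap arrays, against 3.53, 4.09 and 3.93 in the control arrays. It was the only 1 of the 10 whose arrays did not overlap, as in 4.30% of all genes in that direction and 8.85% in either. The difference was 1.31 (SE 0.46, unadjusted p = 0.0306 and adjusted p = 1.00 in limma). The SoxF genes of endothelium, Sox7, Sox17 and Sox18, all lay below the median level.

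Genes that accompany the Sox factors in progenitors and neurons had small differences. In the swap arrays 8 of 15 progenitor genes were higher and 7 lower, 0 were called, and the median difference was 0.02, with 13 intervals within 2-fold. Vim, an intermediate filament gene of radial progenitors, differed by 0.02 (95% interval -0.48 to 0.52). Pou3f3, a POU factor, differed by 0.08 (SE 0.23), and the RNA-binding protein gene Msi1 by 0.16 (SE 0.21), the smallest p of that list.

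In the swap arrays 12 of 15 neuronal genes were higher and 3 lower, against 9260 of 18193 higher over all genes. Among the neuronal genes 0 were called, and the median was 0.08, with 14 intervals within 2-fold. Their mean log2 intensity was 12.25, 12.04 and 12.26 in the swap arrays, against 11.90, 12.27 and 12.19 in the control arrays. Control array 1 was thus the lowest. Stmn3 and Dpysl3, which act on the neuronal cytoskeleton, differed by 0.03 (SE 0.22) and -0.04 (SE 0.20), and Crmp1, related to Dpysl3, by 0.25 (SE 0.24). The neurofilament gene Nefm was the 1 gene of that list whose arrays did not overlap. It stood at 13.19, 12.79 and 12.79 in the swap arrays, against 12.67, 12.73 and 12.73 in the control arrays. In that direction 4.30% of all genes did not overlap, and 8.85% in either direction. Tubb3, a SoxC target named above, differed by 0.19 (95% interval -0.45 to 0.83), and Nefm and Tubb3 were named after their values were seen.

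Nearness of array profiles was taken as the root mean square difference of log2 intensities over the 6 arrays, each gene centred on its own mean, among 10687 further genes at or above that level. The nearest genes to Sox2 were Slc38a1 (0.0174), F2r (0.0183) and Alkbh5 (0.0247). For Sox11 they were Tceanc (0.0262), Lrrc47 (0.0343) and Anapc4 (0.0344). With 6 arrays and flat profiles, such nearness describes these arrays alone.

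The arrays themselves were alike in scale. Array medians ran from 118 to 139 intensity units in both genotypes, and the arrays correlated at 0.885 to 0.907 across probe sets. Swap array 1 had the largest ratio of 3′ to 5′ control signal, 2.92 on the log2 scale for Actb, against 2.41 to 2.67 in the other arrays, and it was the lowest array for Sox4, Sox11 and Sox21, whose link to that ratio was not tested. The motor neuron genes Isl1, Tbx20 and Phox2a, which mark facial motor neurons, were all above the median level, with Isl1 at 13.84 ± 0.17 in the swap arrays and 13.71 ± 0.07 in the control arrays (SD, n = 3 each). Tbx20 differed by 0.19 (SE 0.24) and Phox2a, which had the smallest p of the 3, by -0.50 (SE 0.31), at 8.78 ± 0.30 in the swap arrays and 9.28 ± 0.41 in the control arrays (SD, n = 3 each). Hoxb1 stood at 12.54, 12.06 and 11.78 in the swap arrays, against 12.67, 12.68 and 12.55 in the control arrays. Its swap values all lay below its control values, as in 4.55% of all genes, with 8.85% not overlapping in either direction. The difference was -0.51 (SE 0.27, unadjusted p = 0.112 in limma, not called after adjustment). Since the place of its probe set is not known here, Hoxb1 does not check the labels.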

How the data were processed

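Amplified RNA of sorted cells was hybridized to Affymetrix arrays, per the labels and the series design. The authors deposited a linear intensity for each of 45101 probe sets on each array, and every array had a 2% trimmed mean of 500, so the values had been scaled. The affy package is named in the submitters' processing notes. For its version, the background correction and the summary method, the entry is: not given in the sources used here. Detection calls were not used here.

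After 64 array control probe sets were taken out, log2 was taken with no offset, and 45037 probe sets were fitted by lmFit and eBayes of limma 3.58.1, under R 4.3.3. P-values are two-sided and adjusted by the Benjamini-Hochberg method over all probe sets, with a threshold of 0.05. Gene names are those of the platform's probe table, in which 34945 probe sets had 1 symbol, 932 several and 9160 none, and all 9 Sox genes matched the RefSeq gene table by Entrez identifier. Named from each other list were the 2 genes with the highest mean and the 1 with the smallest p. The Sox genes and the lists were chosen with earlier results of these data known. From the lists, 6 genes were not analysed here. The fit was also run on simulated data, and the outcome is not reported here. The p-values measure the spread between pooled litters, and their precision is limited by the number of arrays.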

Additional observations from a re-analysis of the deposited data

How the results depend on the processing

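Under 14 alternatives limma called 0 probe sets in all and 0 of the Sox probe sets. Where all 45037 probe sets were fitted, 1624 to 2375, and 0 to 4 of the Sox ones, had an unadjusted p under 0.05. The filter at the median level kept 22519 probe sets, of which 838 did. At gene level limma called 0 of the 9 Sox genes under 16 alternatives, with 0 at an unadjusted p under 0.05. Leaving out 1 array gave 0 calls in each case. Of 158 values for the 9 genes and for the Sox11 probe set 1453125_at, 135 kept their direction, 23 turned and 0 became called, and the cause of a turn was not tested. With both replicate 1 arrays left out, Sox11 was at 0.02, Sox21 at 0.18, Sox4 at 0.01, Sox5 at -0.06 and Sox6 at 0.08. Median centring put Sox4 at 0.02. Array weights put Sox5 at -0.07 and Sox6 at 0.01. The median over all probe sets of a gene gave -0.01 for Sox5, 0.01 for Sox6 and -0.32 for Sox9, and without a turn it put Sox4 at -0.34. The mean over all probe sets gave -0.28 for Sox4 and 0.37 for Sox5. With 1 array left out, the log2 differences ran from -0.10 to 0.00 for Sox2, -0.32 to 0.15 for Sox21, -0.10 to 0.46 for Sox3, -0.05 to 0.02 for Sox4, -0.38 to 0.33 for Sox5 and -0.21 to 0.20 for Sox6, all of which include a turn. They ran from 0.05 to 0.51 for Sox1, 0.01 to 0.31 for Sox9, -0.14 to -0.03 for Sox11 and -0.51 to -0.29 for 1453125_at, which kept their direction. The arrays of 1453125_at do not overlap between genotypes, which fixes its direction when 1 array is left out. The replicate number as a block left 0 calls, and 2323 probe sets had an unadjusted p under 0.05, against 2060 without it. With that block the SE of the log2 difference was 0.221 for Sox5 and 0.294 for Sox3, against 0.489 and 0.415 without it. For Sox2, Sox4 and Sox11 the SE was larger with the block. Deviations of arrays with the same number correlated at 0.234, 0.031 and 0.224, and 4 of 6 arrays correlated best with their own number. No source used here says that a number marks a shared litter or day, so the numbers were not taken as pairs. Probe sets below the median level resolved the least, with 0 of 12 Sox intervals within 2-fold, against 16 of 23 at or above it.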
